A study of Bos taurus with 16 samples.

Results

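This account follows 7 genes of epithelial cells in RNA from follicle aspirates of dairy cows, out of 20629 features counted in all. They are the keratins KRT5, KRT14, KRT7 and KRT19, the polymeric immunoglobulin receptor PIGR, and the adhesion molecules EPCAM and CDH1. The genes were picked by name because earlier results of these same libraries showed them high in 3 aspirates, namely control replicates 3 and 8 and treatment replicate 7. Their levels in single libraries are therefore given as a description, with no test. All 7 occurred in the files, each under a single RefSeq accession.

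Keratins are the intermediate filament proteins of epithelia and assemble as pairs of a type I and a type II chain. KRT5 (type II) pairs with KRT14 (type I) in the basal layer of stratified epithelia, whereas KRT7 (type II) and KRT19 (type I) belong mainly to simple, ductal and glandular epithelia. EPCAM and CDH1 (E-cadherin) join epithelial cells to each other. PIGR carries polymeric immunoglobulin A, held together by the joining chain JCHAIN, across mucosal epithelium into secretions. Granulosa cells are the somatic cells that line the follicle, and an aspirate taken through the vagina passes the vaginal wall and the ovarian surface before it reaches them.

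RNA sequencing covered 16 libraries from lactating Holstein cows, 7 titled treatment and 9 titled control, each made from the pelleted cells of a dominant follicle aspirated at 63 ± 3 days after calving. The title of the series concerns the granulosa transcriptome after resolved uterine disease. No label states what treatment stands for, and the labels give no genotype or agent that separates the groups, and do not say which animal a library came from. A p-value here therefore speaks of the spread among libraries only. The tissue field reads blood for all 16. HBB, a haemoglobin chain, was at most 42.7 CPM (a gene's share of the transcript counts in a library, on the counts-per-million scale). HBA and ALAS2 were at most 0.555 CPM, but HBA had 0 counts in control replicate 8, where HBB was highest. Red-cell genes say nothing of blood leukocytes, so these values do not decide what the tissue field means. The files held 8111862 to 14348753 counts per library, so 3 counts correspond to 0.212 to 0.375 CPM. Intervals and floors given here cover counting error only.

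The libraries were of 2 kinds, told apart by INHA, the inhibin alpha subunit made by granulosa cells. INHA lay between 1759 and 3041 CPM in 9 libraries (treatment replicates 4 to 7 and control replicates 2, 3, 4, 7 and 8) and between 0.404 and 111 CPM in the other 7. The nearest values on either side of the gap were 1759 CPM in treatment replicate 4 and 111 CPM in treatment replicate 1. The kinds are read from the counts and are no groups of the study, so levels were not tested between them. In the INHA-high libraries the summed level of 10 leukocyte markers was 29.0 to 1481 CPM, and in the INHA-low libraries it was 8624 to 13808 CPM. The 3 aspirates with high keratins were all INHA-high, with granulosa marker sums of 47470 to 121821 CPM, against 106651 to 153124 CPM in the other 6 of that kind.

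Of the basal keratins, KRT5 was abundant in few aspirates and near the counting limit in many. It reached 211 CPM in control replicate 3, 63.9 CPM in control replicate 8 and 34.6 CPM in treatment replicate 7. The remaining 13 libraries had a median of 0.811 CPM. Control replicate 4 broke the division, with 53.0 CPM (95% Wilson interval 49.3 to 56.9), above treatment replicate 7. Treatment replicate 3, an INHA-low library, was next with 12.0 CPM. KRT5 had 0 counts in treatment replicates 1 and 6, where 3 counts would be 0.334 and 0.297 CPM. The upper ends of the 95% Wilson intervals there were 0.427 and 0.380 CPM.

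KRT14, the partner chain of KRT5, stayed low throughout. It had 4.95 CPM in control replicate 4 and 4.43 CPM in control replicate 3, and no other library exceeded 0.793 CPM. It was at 3 counts or fewer in 9 of 16 libraries, 4 of them at 0. Control replicate 8 and treatment replicate 7, both with clear KRT5, had only 7 and 6 counts of KRT14. Among other chains of stratified epithelia, KRT6A was at most 2.54 CPM and KRT17 at most 7.85 CPM, while KRT15 reached 96.0 CPM in treatment replicate 7 and 73.5 CPM in control replicate 3. How reads shared by near-identical keratin copies were assigned is not given in the sources used here, so the split among close relatives is uncertain.

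Of the simple epithelial keratins, KRT7 separated the 3 aspirates from the rest. It was at 477 CPM in control replicate 3, 111 CPM in treatment replicate 7 and 67.3 CPM in control replicate 8. The other 13 ranged from 0 to 35.6 CPM with a median of 2.57 CPM, and the highest of them was treatment replicate 2. KRT7 had 0 counts in treatment replicate 4, where 3 counts would be 0.330 CPM and the 95% Wilson interval reached 0.422 CPM. This gene was among those that chose the 3 libraries, so the gap is a description.

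KRT19 was counted in every library. Control replicate 3 had 1453 CPM and control replicate 8 had 378 CPM, the highest values of the 16. Treatment replicate 7, at 197 CPM, lay below treatment replicate 2, at 261 CPM, and above control replicate 5, at 133 CPM. The lowest value was 4.20 CPM in control replicate 1, and the 13 other libraries had a median of 28.4 CPM. For KRT19 control replicate 3 thus stood well above the others, control replicate 8 was next, and treatment replicate 7 lay within the range of the 13 other libraries.

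**Figure D1:**
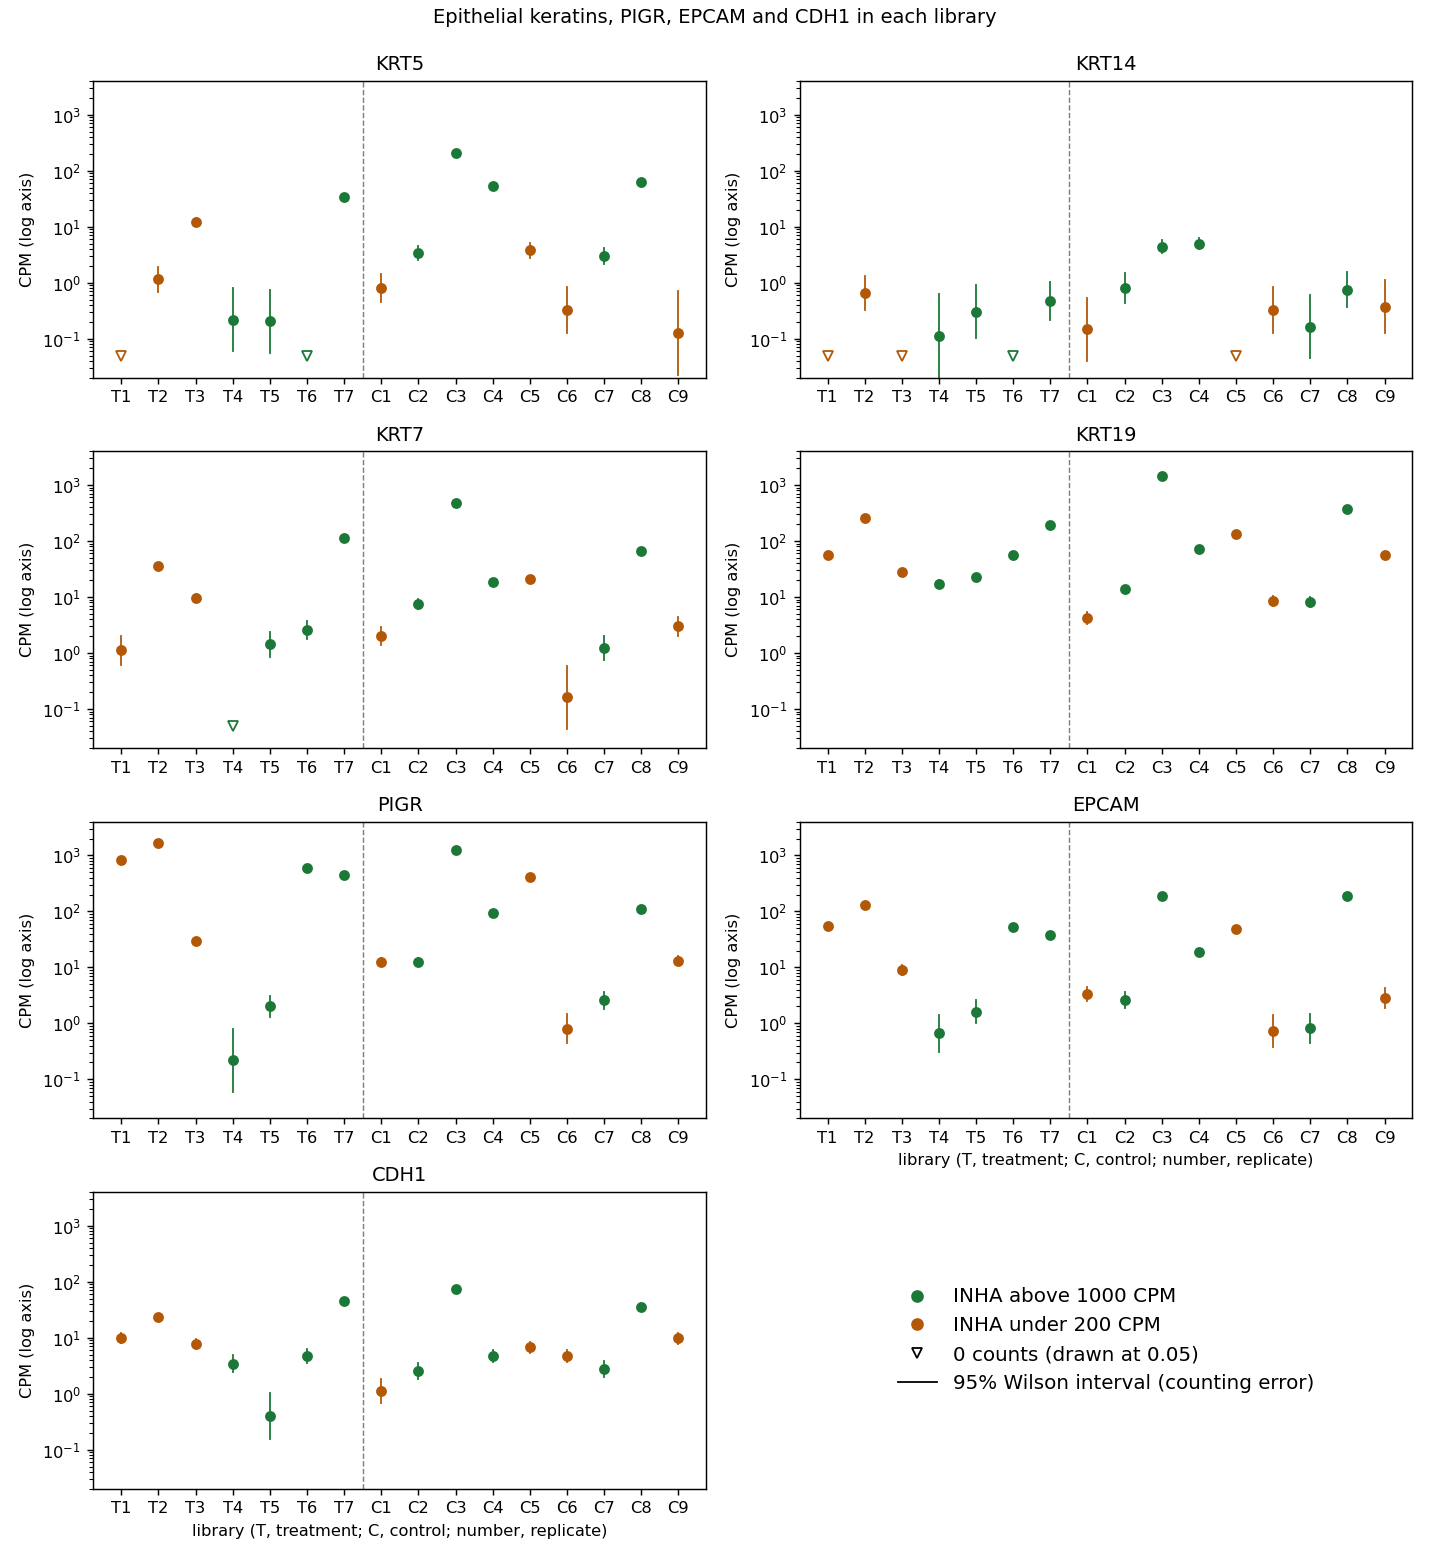
CPM of the 7 genes (vertical log axis) in each of the 7 treatment libraries (T) and 9 control libraries (C), coloured by library kind, with 95% Wilson intervals. KRT7 is highest in control replicates 3 and 8 and treatment replicate 7, whereas PIGR is highest in treatment replicate 2 at 1642 CPM and EPCAM is at 132 CPM there.

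The adhesion molecules had different orders. EPCAM was level in control replicates 8 and 3, at 192 and 189 CPM, while treatment replicate 7 had only 38.5 CPM. Above treatment replicate 7 came treatment replicates 2, 1 and 6, with 132, 54.7 and 52.7 CPM, and control replicate 5 with 48.2 CPM. Treatment replicate 4 was lowest with 0.659 CPM. EPCAM therefore did not single out the 3 aspirates.

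CDH1 did single them out. It was at 73.5 CPM in control replicate 3, 45.3 CPM in treatment replicate 7 and 35.1 CPM in control replicate 8. The next was treatment replicate 2 with 23.6 CPM, and the 13 other libraries had a median of 4.75 CPM. Treatment replicate 5 had the lowest value, 0.407 CPM. CTNNA1, which links cadherins to actin in many cell types, was by contrast between 408 and 971 CPM in all 16 libraries.

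PIGR ranged from 0.220 to 1642 CPM, and its order of libraries differed from that of each keratin. Its highest value, 1642 CPM, was in treatment replicate 2, followed by 1267 CPM in control replicate 3. Treatment replicate 1 had 813 CPM, treatment replicate 6 had 592 CPM, treatment replicate 7 had 439 CPM and control replicate 5 had 406 CPM. Control replicate 8, the second highest for KRT19, had 112 CPM. At the other end, treatment replicate 4 had 2 counts (0.220 CPM) and control replicate 6 had 0.808 CPM. The 6 highest libraries came from both groups and both kinds.

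Over all 16 libraries PIGR and EPCAM moved together more closely than any other 2 of the 7 genes. Pearson's r of log2(CPM + 1) was 0.935 over 16 libraries and 0.988 over the 13 without the 3 aspirates. For these 2 genes it was 0.991 in the INHA-low and 0.913 in the INHA-high libraries. In the INHA-high libraries it was larger for KRT19 with EPCAM (0.926), KRT5 with KRT7 (0.926) and KRT7 with KRT19 (0.916). PIGR also followed the simple epithelial keratins, with r of 0.789 over 16 and 0.799 over 13 libraries for KRT19 and of 0.695 and 0.656 for KRT7. For the basal keratins r with PIGR was lower, at 0.394 over 16 and 0.112 over 13 libraries for KRT5 and at 0.269 and 0.055 for KRT14. KRT5 and KRT7 had r of 0.857 over 16 and 0.614 over 13, and KRT19 and CDH1 had 0.875 and 0.735. These values describe the libraries and carry no p, and all points share the scaling to library total.

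**Figure D2:**
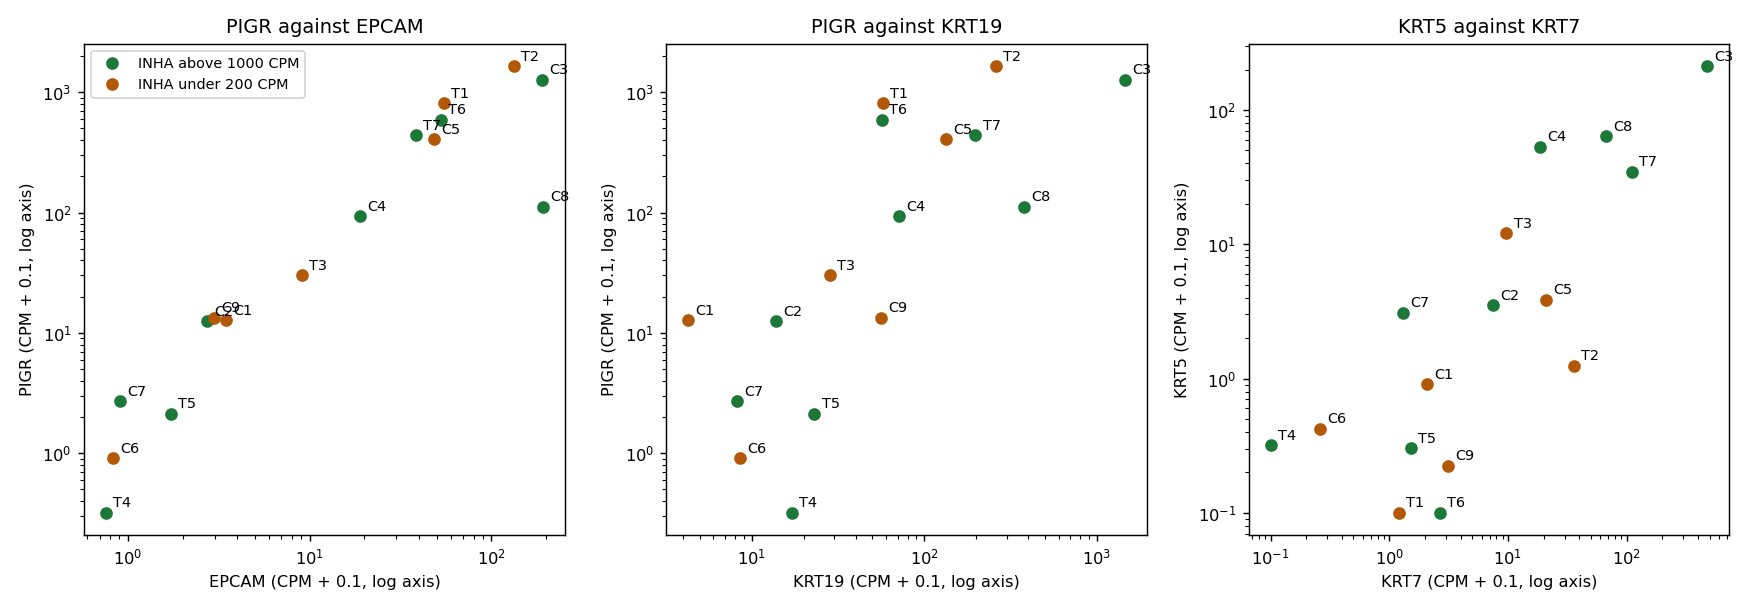
PIGR against EPCAM, PIGR against KRT19 and KRT5 against KRT7, each point 1 library (T, treatment; C, control), with both log axes in CPM + 0.1. PIGR broadly rises with EPCAM, but control replicate 8 has 192 CPM of EPCAM and only 112 CPM of PIGR. PIGR counts per EPCAM count are also low, on few counts, in treatment replicates 4 and 5 and control replicate 6. KRT5 differs widely among libraries of similar KRT7.

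Ratios of counts within a library do not depend on the scaling, and transcript length cancels when a ratio is compared between libraries. PIGR counts per KRT19 count were 14.2 in treatment replicate 1 (95% exact interval 12.96 to 15.52), 10.4 in treatment replicate 6 (9.53 to 11.3) and 6.29 in treatment replicate 2 (6.06 to 6.54). The ratio was 2.22 in treatment replicate 7, 0.872 in control replicate 3 and 0.295 in control replicate 8. The intervals of these 6 libraries do not overlap. In treatment replicates 4 and 5 it was 0.0129 and 0.0885.

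KRT5 counts per KRT19 count gave another order. The ratio lay between 0.145 and 0.175 in the 3 aspirates, namely 0.175 in treatment replicate 7 (0.158 to 0.194), 0.145 in control replicate 3 (0.139 to 0.152) and 0.169 in control replicate 8 (0.155 to 0.184). Control replicates 1 and 2 had 0.193 (0.091 to 0.372) and 0.247 (0.173 to 0.347), intervals that overlap that of treatment replicate 7. The ratio was thus not particular to the 3 aspirates. Control replicate 4 had 0.744 and treatment replicate 3 had 0.421. In the PIGR-rich treatment replicate 2 the ratio was only 0.0044, and treatment replicates 1 and 6 had no KRT5 count at all. Among aspirates with much PIGR and EPCAM, KRT5 was thus graded. It was at 211 CPM in control replicate 3, 63.9 CPM in control replicate 8 and 34.6 CPM in treatment replicate 7. It was at 3.77 CPM in control replicate 5, 1.15 CPM (14 counts) in treatment replicate 2 and 0 counts in treatment replicates 1 and 6.

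**Figure D3:**
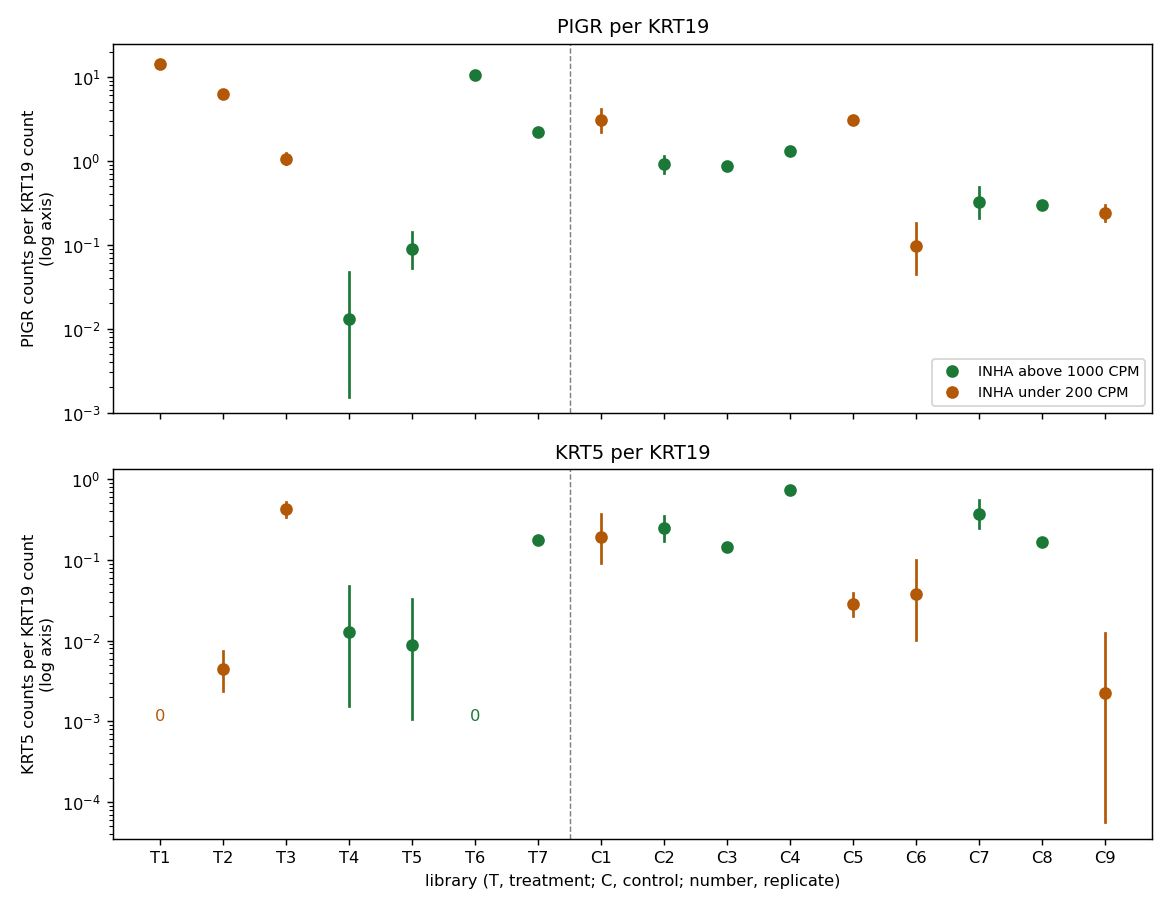
Counts of PIGR and of KRT5 per count of KRT19 in each library (log axes; bars, 95% exact intervals for counting error; 0, no KRT5 count). PIGR per KRT19 is 14.2 in treatment replicate 1 and 0.295 in control replicate 8. KRT5 per KRT19 is 0.145 to 0.175 in treatment replicate 7 and control replicates 3 and 8, and 0.193 in control replicate 1.

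Genes of other epithelial lists showed that the 3 aspirates differed among themselves. A gene was counted as above the rest where it had at least 20 CPM in an aspirate and at least 4 times the highest of the 13 other libraries. In control replicate 3 this held for KRT7 (13.4 times) and KRT19 (5.57 times) among the 7 members, for 57 of 4369 features in all, or 1.3%, and KRT5 lay just outside at 3.99 times. In control replicate 8 it held for none of the 7 members and for 1.38% of features, and in treatment replicate 7 for none of the 7 and for 1.45%. These shares are from the libraries that chose the genes and nothing is read from them.

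In control replicate 3 the lists added S100A2, a calcium-binding protein of basal epithelium, at 512 CPM, the hemidesmosome integrin chain ITGB4 at 80.0 CPM and the desmosomal plakophilin PKP1 at 73.7 CPM. They also added the secretory genes AGR2 at 444 CPM and SLPI at 58.7 CPM, the vesicle GTPase RAB25 at 25.1 CPM and mesothelin, MSLN, at 456 CPM. The keratin KRT18, at 281 CPM, was added as well. JCHAIN, the partner of PIGR's cargo, was at 2418 CPM there. The next JCHAIN values were 239 CPM in control replicate 9 and 162 CPM in control replicate 8, and treatment replicate 2, highest in PIGR, had 59.6 CPM. The 8 genes with the largest ratios were FGFBP1, M-SAA3.2, AQP5, SCNN1A, LBP, TMPRSS3, DLX5 and UPK3BL2, at 13.47 to 37.14 times the highest of the 13. AQP5 is a water channel and SCNN1A a subunit of the epithelial sodium channel, and both are known from secretory or absorptive epithelia.

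Control replicate 8 carried genes of motile cilia. Of 14 genes in the ciliated list that occurred in the files, 6 passed the 4-fold rule there (FOXJ1, DRC1, TEKT1, CCDC39, CAPS and SPAG6), against 0 in treatment replicate 7 and 0 in control replicate 3. FOXJ1, the transcription factor of multiciliated cells, was at 68.5 CPM, against 11.5 CPM in control replicate 3 and at most 1.18 CPM in the other 14 libraries. The list's sum was 684 CPM in control replicate 8, 91.4 CPM in control replicate 3, 17.2 CPM in treatment replicate 7 and 9.65 to 39.7 CPM elsewhere. OVGP1, the oviductal glycoprotein, had 27.2 CPM in control replicate 8, at least 72.5-fold higher than in the 13 others, all at 0, with the floor of 3 counts set per library. Desmoplakin, DSP, was at 46.2 CPM and MSLN at 233 CPM. Among the 8 genes with the largest ratios were FOXJ1, SPAG6, DAW1, LRRC23 and GAS2L2, known from cilia, with ROPN1, ANXA8L1 and OVGP1.

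Treatment replicate 7 was high in other keratins. KRT18 was at 948 CPM and its partner KRT8 at 582 CPM, against at most 281 and 364 CPM in the other 15 libraries, where control replicate 3 was highest. KRT18 counts per KRT19 count were 4.80, against 0.194 in control replicate 3 and 0.384 in control replicate 8. Similar ratios stood in control replicate 6 (5.30) and treatment replicate 4 (3.66), both with under 1 CPM of EPCAM. KRT8 and KRT18 passed the 4-fold rule in treatment replicate 7, but KRT18 passed it in control replicate 3 too. KRT15 at 96.0 CPM and KRT4, a keratin of non-keratinised stratified epithelium, at 61.9 CPM also passed the 4-fold rule in treatment replicate 7. The 8 genes with the largest ratios were FAM216B, RAB3C, AHSG, CYP2C90, AGTR1, GAL, AREG and CBLN3, at 17.4 to 245 times.

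Of 16 suprabasal squamous genes in the files, 12 were at most 5.07 CPM in all 16 libraries. IVL, SBSN, KRTDAP, CSTA and SPINK5 were at most 0.655 CPM, and CRNN was at most 2.55 CPM (control replicate 4). TP63, the transcription factor of basal layers, was at most 1.06 CPM, also in control replicate 4. KRT10 had the highest value of those 12, in control replicate 8. The other 4 were KRT4 (above), TGM3, EVPL and MAL. TGM3, a transglutaminase, had 161 CPM in control replicate 3 and 105 CPM in control replicate 8. EVPL, envoplakin of the cornified envelope, had 28.8 CPM in control replicate 3 and 12.4 CPM in treatment replicate 7. MAL, a membrane trafficking protein, had 41.5 CPM in control replicate 8. In bulk RNA, fewer cells of a type, less RNA per cell and a gene that the counts hardly detect cannot be told apart. The leukocyte marker CD53, for example, was at most 1.78 CPM, although LAPTM5 was 3487 to 5646 CPM in the INHA-low libraries.

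**Figure D4:**
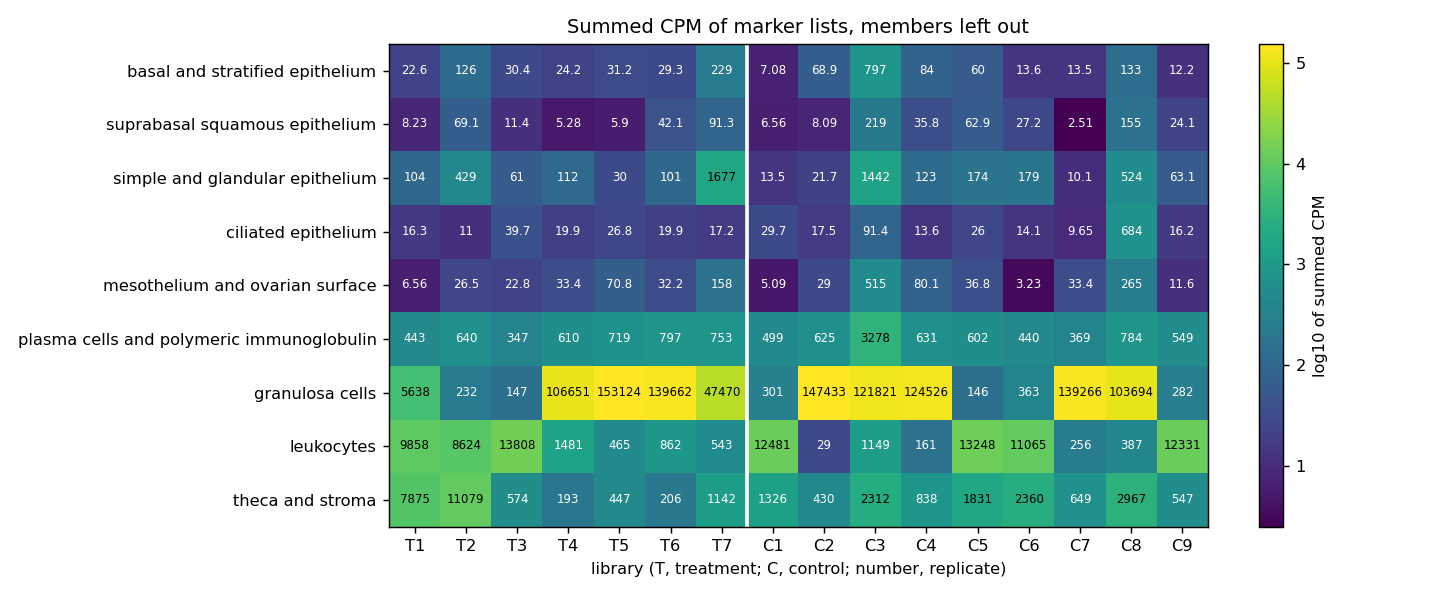
Summed CPM of the measured genes of 9 marker lists, with the 7 members left out, in each library (T, treatment; C, control); colour is the log10 of the sum and the number is the sum in CPM. The ciliated sum is 684 CPM in control replicate 8. The plasma cell sum is 3278 CPM in control replicate 3, mostly from JCHAIN (2418 CPM) and TXNDC5 (647 CPM). The simple epithelial sum is 1677 CPM in treatment replicate 7, mostly from KRT18 (948 CPM) and KRT8 (582 CPM).

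By library kind, the members overlapped throughout. PIGR had a median of 93.6 CPM (0.220 to 1267) in the 9 INHA-high libraries and 30.0 CPM (0.808 to 1642) in the 7 INHA-low libraries. KRT19 had a median of 57.0 CPM (8.11 to 1453) in INHA-high and 55.7 CPM (4.20 to 261) in INHA-low libraries. KRT5 had a median of 3.41 CPM (0 to 211) in INHA-high and 0.811 CPM (0 to 12.0) in INHA-low libraries, and KRT7 7.38 CPM (0 to 477) in INHA-high and 3.00 CPM (0.162 to 35.6) in INHA-low libraries. EPCAM had a median of 18.8 CPM (0.659 to 192) in INHA-high and 8.94 CPM (0.727 to 132) in INHA-low libraries. CDH1 had 4.74 CPM (0.407 to 73.5) in INHA-high and 7.85 CPM (1.11 to 23.6) in INHA-low libraries. The sum of theca and stroma genes was highest in the INHA-low treatment replicates 2 and 1, at 11079 and 7875 CPM, which had 1642 and 813 CPM of PIGR. Collagens made up most of these sums, with COL1A2 alone at 6009 and 4459 CPM. The theca genes of the list were low there. CYP17A1 had 0.819 and 13.2 CPM, against 736 CPM in treatment replicate 7. INSL3 had 0.082 and 3.11 CPM, against 204 CPM in treatment replicate 5. The part of collagen-rich cells in the PIGR values was not tested.

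Genes whose pattern was most like that of each member were ranked by Pearson's r of log2(CPM + 1) over the 16 libraries, as a description. For EPCAM these were WFDC2 (r = 0.988), GPX2, PIGR, AGR2 and AGR3 (0.918 for the fifth). For PIGR they were WFDC2 (0.943), EPCAM, WFDC18, CIST1 and AGR2 (0.887). For KRT7 they were LY6G6E (0.98), TSPAN1, UPK3BL2, FXYD3 and MLPH (0.948). For KRT19 they were ERBB3 (0.961), CLDN3, SLC44A4, MPZL2 and PCDH1 (0.916), and for CDH1 MPZL2 (0.917), PCDH1, CLDN3, PERP and ERBB3 (0.889). For KRT5 they were AQP5 (0.904), NTS, UPK3BL2 and CLCA1 (0.886). For KRT14 they were C1QTNF5 (0.827), CA10, CYSRT1, COLEC11 and LBP (0.729), with KRT14 itself under 5 CPM. WFDC2, a secreted protease inhibitor of glandular epithelia, was at 105 CPM in control replicate 3, 62.9 CPM in control replicate 8 and 60.5 CPM in treatment replicate 2, and had 0 counts in treatment replicate 5 and control replicates 6 and 7. Over the 13 other libraries r was 0.987 for EPCAM with WFDC2, while the 4 genes named for KRT5 had r of 0.716 to 0.831.

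The design's own comparison, treatment against control, was fitted over all 16 libraries. Of the 7 members, 6 passed the filter on low counts and KRT14 did not. At an adjusted p under 0.05 (edgeR, quasi-likelihood) no member was called, and 0% of 9653 features were. An unadjusted p under 0.05 was found for 163 features, and DESeq2 called 3, none of them a member.

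KRT5 ranged from 0 to 34.6 CPM in treatment (median 0.220 CPM, n = 7), against 0.125 to 211 CPM in control (median 3.41 CPM, n = 9). Its fitted log2 fold change was -2.40 ± 1.61 (SE; edgeR adjusted p = 0.9999). The value became -4.04 when treatment replicate 7 was left out and -1.33 without control replicate 3. The groups overlapped between 0.125 and 34.6 CPM, and 3 of 9 control libraries (211, 63.9 and 53.0 CPM) lay above every treatment library.

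KRT7 was at 0 to 111 CPM in treatment (median 2.57 CPM), against 0.162 to 477 CPM in control (median 7.38 CPM), with a log2 fold change of -1.43 ± 1.47 (SE). KRT19 was at 17.0 to 261 CPM in treatment (median 57.0 CPM), against 4.20 to 1453 CPM in control (median 55.7 CPM), with -1.35 ± 1.08 (SE). Here the mean log2 CPM was slightly higher in treatment, 5.77 ± 1.47 (SD, n = 7) against 5.61 ± 2.73 (SD, n = 9) in control, so mean and fit differ in sign. Without control replicate 3 the fitted values were 0.58 for KRT7 and 0.058 for KRT19.

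EPCAM was at 0.659 to 132 CPM in treatment (median 38.5 CPM), against 0.727 to 192 CPM in control (median 3.39 CPM). Its fitted log2 fold change was -0.36 ± 1.18 (SE), although its mean log2 CPM was 3.86 ± 2.73 (SD, n = 7) in treatment and 3.30 ± 3.00 (SD, n = 9) in control. CDH1 was at 0.407 to 45.3 CPM in treatment (median 7.85 CPM), against 1.11 to 73.5 CPM in control (median 4.76 CPM), with -0.19 ± 0.88 (SE). PIGR was at 0.220 to 1642 CPM in treatment (median 439 CPM), against 0.808 to 1267 CPM in control (median 13.2 CPM), and had the only positive fitted value of the 6, 1.19 ± 1.39 (SE). It was 0.54 without treatment replicate 2 and 2.53 without control replicate 3. The adjusted p was 0.9999 for each of the 6 members.

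Within the kinds of library, the fitted values pointed in opposite directions. Among the INHA-high libraries all 6 members had negative fitted values, with KRT5 at -2.93 ± 1.79 (SE), KRT19 at -2.35 ± 1.35, KRT7 at -1.93 ± 1.84, EPCAM at -1.82 ± 1.52, CDH1 at -0.81 ± 1.26 and PIGR at -0.23 ± 1.78 (4 treatment and 5 control libraries). Among the INHA-low libraries all 6 were positive, with PIGR at 2.90 ± 1.91 (SE), EPCAM at 2.21 ± 1.42, KRT5 at 1.86 ± 1.56, CDH1 at 1.30 ± 0.67, KRT7 at 1.24 ± 1.45 and KRT19 at 1.18 ± 1.21 (3 treatment and 4 control libraries). Over all features, 4363 of 9272 were negative in INHA-high and 5066 of 9912 were positive in INHA-low libraries. Several members moved together (r of 0.991 for PIGR with EPCAM in INHA-low libraries), so their signs are not separate observations. No member passed in either kind, and no feature did (0% of 9272 and 0% of 9912, edgeR). The difference between the kinds in the treatment effect was tested as an interaction and none of the 6 passed (0% of all features; edgeR, adjusted p from 0.930 to 0.9498). The largest, for KRT5, was -4.74 ± 2.60 (SE). The members were picked for high levels in 3 aspirates, all INHA-high and more of them control than treatment. That choice by itself favours negative values among the INHA-high libraries. The signs there, their contrast with the INHA-low libraries and the interaction are therefore a description, and nothing is read from them about the kinds.

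Values behind the INHA-low comparison show the overlap. PIGR was at 813, 1642 and 30.0 CPM in treatment replicates 1 to 3, against 12.7, 406, 0.808 and 13.2 CPM in control replicates 1, 5, 6 and 9. EPCAM was at 54.7, 132 and 8.94 CPM in the treatment libraries, against 3.39, 48.2, 0.727 and 2.87 CPM in the control libraries. CDH1 was at 9.79, 23.6 and 7.85 CPM in the treatment libraries, against 1.11, 6.74, 4.76 and 9.74 CPM in the control libraries. In each gene the lowest treatment library lay below the highest control library.

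Without control replicates 3 and 8 and treatment replicate 7, fitted log2 fold changes over 13 libraries were 2.59 ± 1.60 (SE) for PIGR and 1.74 ± 1.17 for EPCAM. Those of CDH1 and KRT19 were 0.66 ± 0.66 and 0.65 ± 0.83, and KRT7 was at -0.07 ± 1.18 and KRT5 at -2.34 ± 1.62. Thus 3 members (KRT19, EPCAM and CDH1) had the opposite sign to the fit over 16 libraries, and no member passed (0% of 9549 features, edgeR).

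**Figure D5:**
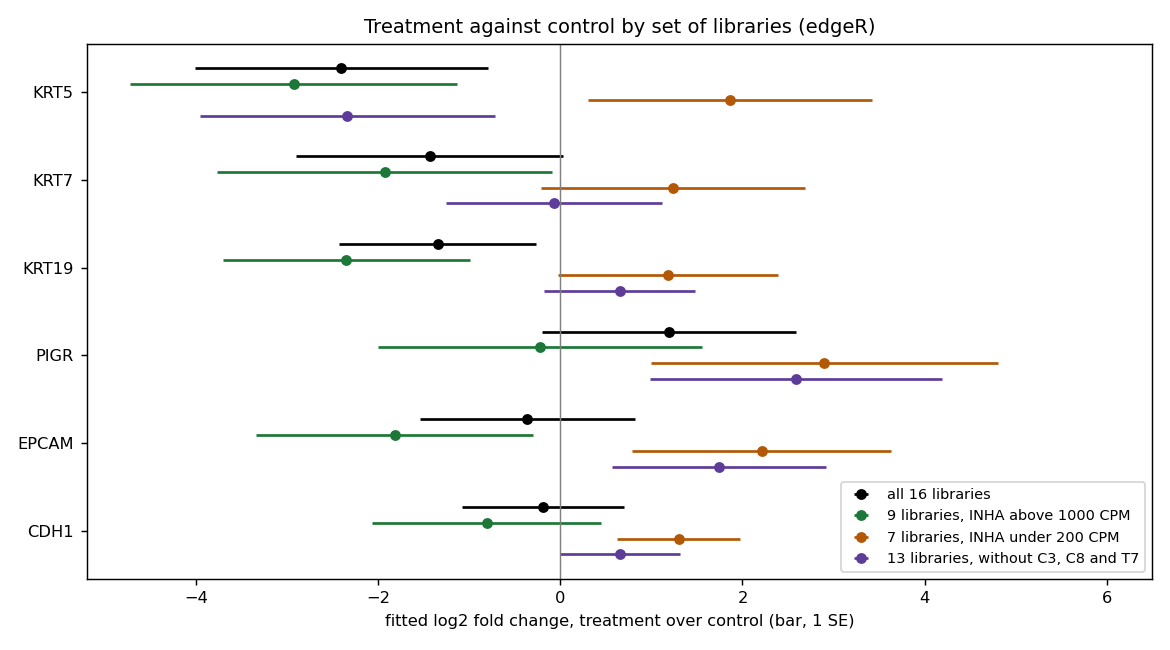
Fitted log2 fold change of treatment over control with 1 SE (edgeR) for the 6 members that passed the filter, in 4 sets of libraries. In the 9 INHA-high libraries all 6 lie below 0 and in the 7 INHA-low libraries all 6 lie above 0, and no value passed the test. The members were picked for high levels in INHA-high aspirates, more of them control than treatment, so the signs are not independent of that choice.

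The wider epithelial lists gave the same count over 16 libraries. Of 9 tested genes of basal and stratified epithelium, 10 of simple and glandular epithelium, 14 of epithelial junctions, 11 of epithelial regulators, 4 of suprabasal epithelium and 3 of ciliated epithelium, 0 passed in either direction. The median log2 fold change was 0.08 for the basal list, -0.25 for the simple and glandular list, -0.13 for junctions and -0.17 for regulators, against 0.01 over all features. It was -0.83 for the suprabasal list (3 of 4 below 0) and -1.34 for the ciliated list (3 of 3 below 0). In the INHA-high libraries the median was -1.28 for the basal list (6 of 8 genes below 0) and -1.32 for the simple and glandular list (9 of 11), against 0.04 over all features. In the INHA-low libraries it was 1.38 for the basal list (8 of 8 above 0) and 1.38 for the simple and glandular list (11 of 12), against 0.01 over all features. In the INHA-high libraries it was -0.80 for junctions (12 of 15 below 0), -0.28 for regulators (9 of 11), -1.06 for the suprabasal list (3 of 5) and -2.72 for the ciliated list (4 of 4). In the INHA-low libraries it was 1.51 for junctions (8 of 11 above 0), 0.60 for regulators (8 of 11), 0.74 for the suprabasal list (4 of 5) and 0.34 for the ciliated list (2 of 3). Among INHA-high libraries the ciliated sum was 684 CPM in control replicate 8 and at most 91.4 CPM in the others. Several of these lists hold members, and all were chosen with earlier results known. Markers of other cells differed beside them. Theca and stroma genes had medians of -1.36 in INHA-high libraries (6 of 8 below 0) and 1.39 in INHA-low libraries (12 of 12 above 0). Leukocyte genes had 0.94 in INHA-high libraries (0 of 9 below 0) and -0.10 in INHA-low libraries (5 of 10 above 0). Granulosa genes had -0.33 in INHA-high libraries (9 of 12 below 0) and 1.94 in INHA-low libraries (9 of 10 above 0). Among INHA-low libraries the granulosa sum was 5638 CPM in treatment replicate 1, but 232 and 147 CPM in treatment replicates 2 and 3. In the INHA-low control libraries it was 146 to 363 CPM. The part of theca, stroma, leukocytes and granulosa cells in the member values was not tested.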

How the data were processed

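The members and marker lists were chosen with earlier results of these data known. The deposited files hold whole-number read counts per RefSeq accession, not normalized, and an accession without a line was taken as 0. The submitters' processing notes name SAMtools, Bowtie2 and cutadapt. Their versions, the genome build and the treatment of multi-mapping reads were not given in the sources used. The library kit does not mark strand, per the labels' protocols, so overlapping antisense genes cannot be told apart. Genomic records (133 accessions, 0.712 to 1.92% of counts) were left out. RefSeq's gene table (ARS-UCD2.0, names only) matched 18973 of 27173 transcript accessions when versions were ignored. For KRT14, KRT19, PIGR and CDH1 the version differed. Counts were summed per gene, and unmatched transcripts were kept, giving 20629 features.

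CPM divide by the transcript counts of a library. Treatment was compared with control in edgeR 4.0.16 (R 4.3.3) with TMM scaling, filterByExpr by group, robust glmQLFit and Benjamini-Hochberg adjustment over all features. The SE was taken as the size of the log2 fold change over the root of F. Mean log2 CPM, unlike the other CPM, used TMM-adjusted totals, with a prior count of 1. The fit was tested on simulated data. DESeq2 1.42.0 was an alternative. Named genes were the members, 12 marker lists, the 8 genes with the largest ratio in each of the 3 aspirates and the 5 most correlated with each member, of which 1 is not reported here. The labels do not say whether same-numbered libraries of the 2 groups are pairs, and the main fit assumed none.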

Additional observations from a re-analysis of the deposited data

Results flagged for a closer look

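In 14 comparisons of a gene within a group (7 genes, treatment n = 7 and control n = 9), 8 had a library far from the others by Dixon's ratio of gap to range on the CPM scale. Chance flags about 1 in 20, but the genes were chosen for high values in control replicate 3 and treatment replicate 7, so the count is a description and is not read against that rate. Control replicate 3 was the high library in 5 of them. It had 211 CPM of KRT5 (next control 63.9), 477 CPM of KRT7 (next 67.3), 1453 CPM of KRT19 (next 378), 1267 CPM of PIGR (next 406) and 73.5 CPM of CDH1 (next 35.1). Treatment replicate 7 was the high library for KRT5 at 34.6 CPM (next treatment 12.0) and for KRT7 at 111 CPM (next 35.6). Treatment replicate 2 was the high library for EPCAM at 132 CPM (next 54.7).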

How the results depend on the processing

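No feature passed in any edgeR alternative, each library left out included, and DESeq2 called 3. The 6 tested members gave 160 alternative values, none past the threshold (lowest adjusted p 0.889), of which 22 changed sign and 138 did not. Among INHA-low libraries the values that turned were 1.86 (KRT5), 1.24 (KRT7), 1.18 (KRT19), 2.21 (EPCAM) and 1.30 (CDH1), and among INHA-high libraries -0.23 (PIGR). Without the 3 aspirates they were 0.65 (KRT19), 1.74 (EPCAM) and 0.66 (CDH1), and with library kind as a covariate 0.061 (EPCAM) and 0.17 (CDH1). With the replicate number as a block, KRT19 was 1.18, EPCAM 2.10 and CDH1 0.33, and 0 features passed. The correlation of same-numbered libraries ran from -0.60 to 0.60, and 0 of 7 was closest to its own number. It was positive where both libraries were of the same kind (replicates 1, 4 and 7) and negative elsewhere. It therefore cannot decide whether the numbers pair the libraries. With each library left out, KRT5 lay between -4.04 and -1.33, KRT7 between -3.00 and 0.58, KRT19 between -1.82 and 0.058, PIGR between 0.54 and 2.53, EPCAM between -0.99 and 0.27 and CDH1 between -0.98 and 0.63. CDH1 turned positive when control replicate 3 (0.63), control replicate 8 (0.063), treatment replicate 4 (0.016) or treatment replicate 5 (0.025) was dropped, and EPCAM when control replicate 3 (0.19) or control replicate 8 (0.27) was. The causes were not tested. With TMM-adjusted totals the highest PIGR value was 1443 CPM and the highest KRT19 value 1310 CPM. With at least 10 counts in every library KRT19 alone of the members could be fitted, and KRT19, PIGR and CDH1 could not when accession versions had to match. Values under 0.212 CPM rest on fewer than 3 counts in every library.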
